A study of Mus musculus with 6 samples.

Results

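The nuclear-encoded genes of the mitochondrial respiratory chain and ATP synthase were examined in splenic B cells of mice with and without CD37, a tetraspanin of the B cell surface. Genes were chosen by symbol, as those whose names begin with Ndufa, Ndufb, Ndufc, Ndufs, Ndufv, Uqcr, Atp5 or Cox4 to Cox8, together with Sdha, Sdhb, Sdhc and Sdhd. This gave 89 of the 19935 genes measured on the arrays, each represented by its brightest probe set. The names cover 36 genes of complex I, 4 of complex II, 8 of complex III, 17 of complex IV and 17 of complex V. The rule also took in 7 genes named Ndufaf1 to Ndufaf7, which encode assembly factors of complex I and not subunits, so these were described apart.

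Complex I (NADH dehydrogenase) and complex II (succinate dehydrogenase) pass electrons from NADH and succinate to ubiquinone. Complex III (the cytochrome bc1 complex) hands them on to cytochrome c, and complex IV (cytochrome c oxidase) to oxygen. Complexes I, III and IV pump protons across the inner mitochondrial membrane, and complex V, the ATP synthase, uses their return to make ATP. Complexes I, III, IV and V combine subunits encoded in the nucleus with others encoded by mitochondrial DNA, whereas complex II is encoded by nuclear genes only. Resting B cells draw much of their ATP from this pathway, and the study asked how loss of CD37 changes the fuel that B cells burn in their mitochondria.

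The 6 samples were CD43-/B220+ splenic B cells of 3 wild-type (WT) mice and 3 Cd37-/- littermates (CD37KO), with 1 array per mouse. All mice were C57BL/6J, aged 3 months by the labels while the study's methods give an older age, and the deletion is carried by every cell of the animal. The cells were untreated and were enriched by removing those that carry CD43, while B220 staining was used to judge purity. Values are log2 signals of an Affymetrix mouse gene array after RMA, the authors' background correction, normalisation and summary of probes, and a difference of 1 is a doubling of signal.

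Several facts of the series bear on all values below. The targeted gene, Cd37, averaged 11.97 ± 0.13 (SD, n = 3) over the WT arrays and 8.16 ± 0.011 (SD, n = 3) over the CD37KO arrays. Background was set at 5.76 on the log2 scale, a level that 95% of 1027 olfactory receptor genes stayed below. The mean of 10 mature B cell markers lay between 11.48 and 11.57 in all arrays, far above it. Of the arrays, WT replicate 2 had the lowest mean correlation with the others (0.988). CD37KO replicate 2 and WT replicate 2 had the largest spread of genes around their genotype mean (SD 0.153 and 0.143 against 0.102 to 0.114). The arrays also differed in markers of other cells. The mean of 12 neutrophil markers was 6.19, 6.01 and 6.25 in WT and 7.93, 6.54 and 7.24 in CD37KO replicates 1 to 3, although 7 of these markers were not above background in every array. The mean of 12 macrophage and monocyte markers was 9.46, 8.71 and 8.80 in WT and 9.65, 8.47 and 9.60 in CD37KO replicates. The mean of 9 proliferation genes was 7.96, 8.21 and 7.74 in WT and 8.44, 7.85 and 8.41 in CD37KO replicates. The part of these cells in the values of the respiratory chain genes was not tested, and in bulk RNA fewer cells of a type and less RNA per cell cannot be told apart.

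Of the 89 genes, 84 were above background in all 6 arrays, among them all members of complexes II, III and V, all 7 assembly factors, 34 of complex I and 14 of complex IV. Ndufa4l2, a relative of Ndufa4, and Cox6b2, Cox7a1 and Cox8b, the partners of more widely expressed cytochrome oxidase subunits, were above it in 0 of 6 arrays. Ndufs5, an accessory subunit of complex I, was above it in 1 of 6. Each of these isoforms had a partner above background in every array, namely Ndufa4, Cox6b1, Cox7a2 and Cox8a. A further 4 isoforms known mainly from lung, muscle or testis were also above background in all 6 arrays, with mean levels in WT of 6.68 for Cox4i2, 6.19 for Cox6a2, 6.67 for Cox7b2 and 5.96 for Cox8c. Levels of different probe sets were not set against each other, since probes differ in how brightly they hybridise. Some protein-coding genes that the symbols match, such as Ndufb1, Ndufb4, Cox7c and Ndufaf8, had no probe set of their own and were not analysed here. Of the probe sets shared with another gene, 3 named Cox7c and Gm12338, 2 named Ndufb4 and Ndufb4b, and 1 named Ndufs5 and its pseudogene. Their differences between CD37KO and WT were 0.080 to 0.19, and which gene gave the signal cannot be told apart.

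No member passed the test between CD37KO and WT after adjustment. By limma, 0 of 89 genes had an adjusted p under 0.05, against 0.0552% of all genes tested (11 of 19935, with 0.0251% higher and 0.0301% lower in CD37KO), and the adjusted p of the members ran from 0.801 to 0.995. Without the adjustment, 4 members had higher values in CD37KO at a p under 0.05, which is 4.49% of the members against 2.96% of all genes and 5.1% of the genes above background. None had lower values at that level, against 2.99% of all genes and 2.1% of the genes above background. For 82 of the 84 genes above background, the 95% confidence interval of the difference lay within 0.5 on either side of 0 on the log2 scale. The median standard error of a member's difference was 0.076.

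Atp5e (Entrez Gene 67126), the epsilon subunit of the central stalk of ATP synthase, had the smallest p of the members. Its log2 levels were 7.11, 7.02 and 7.24 in WT and 7.48, 7.34 and 7.59 in CD37KO replicates 1 to 3. Every CD37KO array exceeded every WT array, with a difference of 0.35 (standard error 0.087, 95% interval 0.15 to 0.55, unadjusted p = 0.00362 and adjusted p = 0.801 from limma). Leaving out 1 array at a time moved this difference between 0.29 and 0.41.

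Ndufb2 (Entrez Gene 68198), an accessory subunit of the membrane arm of complex I, was at 6.49, 6.55 and 6.19 in WT and at 6.70, 6.70 and 6.62 in CD37KO. Its groups did not overlap, and the difference was 0.27 (standard error 0.098, unadjusted p = 0.0242 by limma). Without WT replicate 3, the lowest array, it was 0.16. Ndufaf1 (Entrez Gene 69702), an assembly factor of the complex I membrane arm, was at 6.84, 6.87 and 6.91 in WT and 7.16, 7.01 and 6.98 in CD37KO. The groups again did not overlap, and the difference was 0.17 (standard error 0.068, unadjusted p = 0.0341 by limma). Ndufa2 (Entrez Gene 17991), an accessory subunit of the matrix arm, was at 8.96, 8.71 and 8.88 in WT and 9.32, 8.90 and 9.12 in CD37KO. Here CD37KO replicate 2 lay inside the WT range, and the difference of 0.26 (standard error 0.11, unadjusted p = 0.048 by limma) was 0.16 without CD37KO replicate 1. After adjustment over all genes none of these 3 passed, each with an adjusted p of 0.801.

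**Figure D1:**
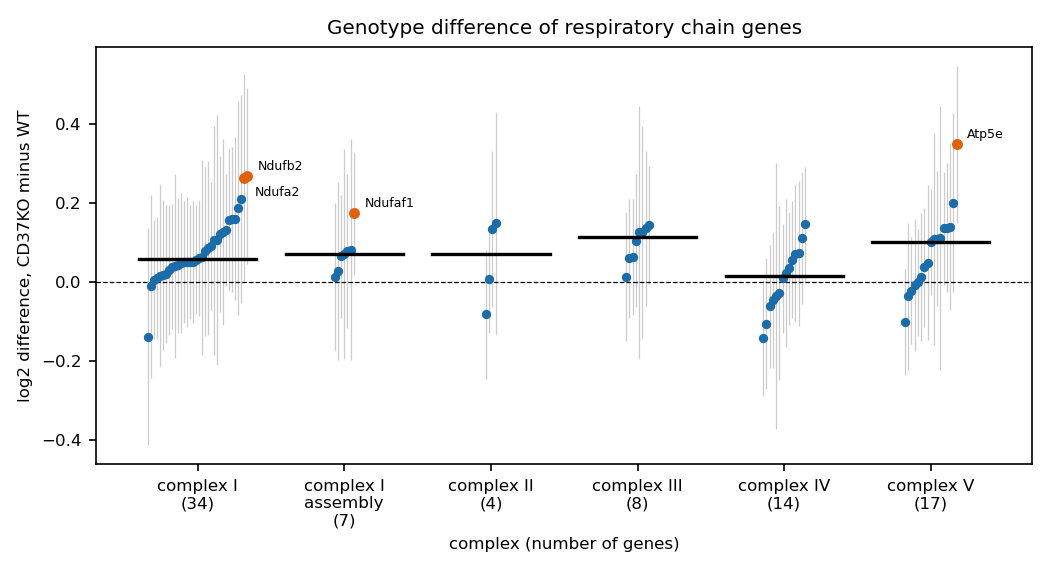
Log2 difference between CD37KO and WT for each of the 84 respiratory chain genes above background (points, vertical axis), grouped by complex (horizontal axis), with 95% confidence intervals as grey lines and the median of each complex as a black bar. Orange points are the 4 genes with an unadjusted p under 0.05 in limma, and medians run from 0.015 in complex IV to 0.11 in complex III. Complex IV includes the isoforms Cox4i2, Cox6a2, Cox7b2 and Cox8c, known mainly from other tissues.

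The promoters of Atp5e and Ndufaf1 are shown because both genes stood at the top of this order and both carry a letter match to the core bound by ETS factors such as GABPA, a known regulator of respiratory chain genes. The windows come from RefSeq (build GRCm38.p6), read in the sense of the gene, with the match to CCGGAAG or its reverse complement in capitals. That of Atp5e is chr2:174464167-174464233 on the minus strand and that of Ndufaf1 is chr2:119662835-119662882 on the minus strand.
Atp5e: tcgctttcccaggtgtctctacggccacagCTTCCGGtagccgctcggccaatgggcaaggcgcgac
Ndufaf1: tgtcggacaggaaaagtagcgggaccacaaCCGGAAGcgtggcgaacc
The promoter of Ndufb2 held no match to these letters in the window searched.

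Arrays were also compared by their order. Every CD37KO array exceeded every WT array for 9 of 89 members (10.1%), against 4.33% of all genes and 6.97% of the genes above background. Beside Atp5e, Ndufb2 and Ndufaf1 these were Ndufs8, an iron-sulfur subunit of complex I, Uqcrc2 and Uqcrfs1 of complex III, Cox5a of complex IV, and Atp5j and Atp5mpl of complex V. Uqcrfs1, the Rieske iron-sulfur protein, was at 8.17, 8.12 and 8.07 in WT and 8.19, 8.28 and 8.32 in CD37KO. Cox5a, a subunit of cytochrome oxidase bound to its catalytic core, was at 7.36, 7.35 and 7.48 in WT and 7.57, 7.51 and 7.55 in CD37KO. Neither gene reached an unadjusted p under 0.05 in limma. The opposite order was seen in 3 of 89 members (3.37%), against 7.57% of all genes, and in 2 of the 84 above background (2.38%), against 4.62% of such genes. The remaining gene, Ndufa4l2, was below background in every array. Cox4i2 was at 6.71, 6.67 and 6.67 in WT and 6.60, 6.56 and 6.46 in CD37KO. Atp5c1, the gamma subunit of ATP synthase, was at 10.38, 10.35 and 10.36 in WT and 10.30, 10.21 and 10.27 in CD37KO. Neither Cox4i2, with a difference of -0.14, nor Atp5c1, with one of -0.10, reached an unadjusted p under 0.05 in limma.

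Most members had small differences of the same sign. The difference was above 0 in 70 of the 84 genes above background (83.3%, against 57.0% of all genes above background), and their median was 0.060 (range -0.14 to 0.35) against 0.017 for all genes. Over all 89 genes, 71 were above 0 and the median was 0.056. The sign count rested in part on single arrays, falling to 58 genes (69.0%) with a median of 0.032 without WT replicate 2 and to 57 genes (67.9%) with a median of 0.046 without CD37KO replicate 1. Without CD37KO replicate 2, by contrast, 72 genes were above 0 and the median was 0.091. The arrays were then compared by the average of all members. Averaged over the 84 genes as deviations from each gene's mean, the levels were 0.0065, -0.093 and -0.014 in WT and 0.076, -0.025 and 0.050 in CD37KO replicates 1 to 3. The groups overlapped, and their difference of 0.067 compares with a standard deviation between arrays of 0.053 in each genotype. This spread took the same course over the replicate numbers in both genotypes. Around the genotype mean, replicates 1 to 3 were at 0.040, -0.060 and 0.020 in WT and at 0.042, -0.059 and 0.017 in CD37KO. The standard deviation treats the arrays as unpaired, and the labels do not say whether equal numbers mark a pair.

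Among the complexes, complex III had a median difference of 0.11, complex V of 0.10, complex II of 0.070, complex I of 0.058 and complex IV of 0.015, beside 0.071 for the 7 assembly factors. Differences were above 0 in 32 of 34 genes of complex I, 3 of 4 of complex II, 8 of 8 of complex III, 8 of 14 of complex IV, 12 of 17 of complex V and 7 of 7 assembly factors. Complex IV here includes the isoforms of other tissues, Cox4i2 (-0.14), Cox8c (-0.11), Cox7b2 (-0.062) and Cox6a2 (0.022). Its other genes below 0 were Cox4i1 (-0.045), Cox6a1 (-0.037) and Cox7a2l (-0.029). The remaining genes of complex IV were above 0, from 0.0084 (Cox5b) to 0.15 (Cox5a). The median of complex IV without the isoforms was not calculated, so its low place in this order rests in part on them. The order of the medians of the complexes was not stable. Without WT replicate 2 they were 0.047 for complex III, 0.041 for complex V, 0.0013 for complex II, 0.042 for complex I and 0.011 for complex IV. Without CD37KO replicate 3 complex IV was at -0.0091. The complexes were not tested against each other, since their genes are not independent replicates.

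All 4 genes of complex II were examined singly. Sdha, the flavoprotein that oxidises succinate, was the steadiest, at 9.90, 9.88 and 9.92 in WT and 9.91, 9.94 and 9.86 in CD37KO. Sdhb, the iron-sulfur subunit, was at 8.33, 8.18 and 8.37 in WT and 8.51, 8.27 and 8.50 in CD37KO. Sdhd, one of the membrane anchors, was at 7.84, 7.62 and 7.77 in WT and 7.63, 7.68 and 7.67 in CD37KO. The genotypes overlapped in all 3 genes. Sdhc, the other membrane anchor, was at 9.01, 8.62 and 9.07 in WT and 9.11, 8.91 and 9.13 in CD37KO. The low value of WT replicate 2 set its difference of 0.15, which was 0.0080 without that array.

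Some members had close values in every array. Atp5a1 and Atp5b, the subunits that form the catalytic head of ATP synthase, had differences of -0.0016 and -0.022, and standard deviations within a genotype of 0.036 and 0.037. Their 95% intervals, -0.14 to 0.13 and -0.16 to 0.11, were among the narrower ones. The differences of the other F1 subunits were 0.35 for Atp5e, -0.10 for Atp5c1 and -0.037 for Atp5d (the delta subunit), and that of Atp5o, which joins the head to the peripheral stalk, was 0.14. The 3 genes that encode the same c subunit of the membrane ring, Atp5g1, Atp5g2 and Atp5g3, had differences of 0.14, 0.037 and -0.0081.

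**Figure D2:**
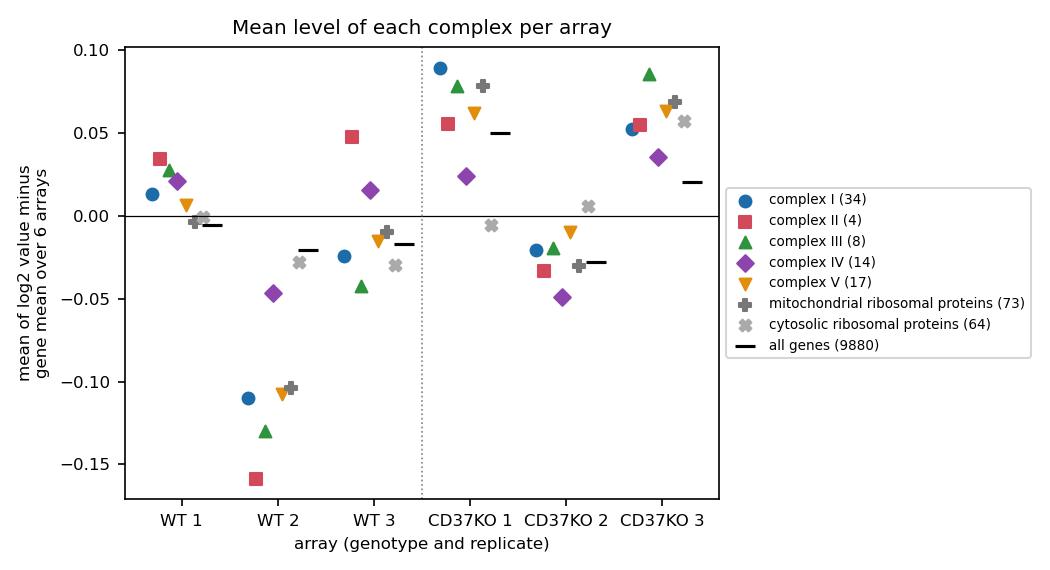
Mean level of the genes of each complex in each of the 6 arrays (horizontal axis), as the average log2 deviation from each gene's mean over all arrays (vertical axis), beside ribosomal protein genes and all genes above background, with gene numbers in the legend. In WT replicate 2 complexes I, II, III and V lay between -0.16 and -0.11, below complex IV at -0.047 and all genes at -0.020. The genes of complex IV include the isoforms Cox4i2, Cox6a2, Cox7b2 and Cox8c, known mainly from other tissues. The mean of complex IV without them was not calculated.

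The variation of the members was then divided into a part between and a part within genotypes. Genotype held 23.8% of the members' sum of squares, next to 23.6% for all genes above background. By complex this share was 33.9% in complex V, 23.5% in complex I, 22.8% in complex II, 21.5% in complex III and 18.3% in complex IV. Squares give large differences more weight, and complex V holds Atp5e, whose difference of 0.35 was the largest of the members. The next in complex V was Atp5l at 0.20. The share of complex V without Atp5e was not calculated. The median standard deviation of a member within a genotype was 0.091, against 0.103 for all genes. After the genotype means were removed, 1 component held 50.5% of the remaining variation of the 84 genes. This was near the 51.2% of mitochondrial and 48.5% of cytosolic ribosomal protein genes. With the genotype difference left in, the median correlation between pairs of members over the 6 arrays was 0.28. It was 0.24 for mitochondrial and 0.17 for cytosolic ribosomal protein genes. All genes of an array share its labelling and hybridisation, so these correlations are given as a description.

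The members were lowest in WT replicate 2 more often than in any other array, in a count over both genotypes that also takes in their difference. WT replicate 2 was the lowest of the 6 for 41 of 84 members (48.8%), against 26.7% of all genes above background, 38.4% of 73 mitochondrial ribosomal protein genes and 31.2% of 64 cytosolic ones. It was lowest for 18 of 34 genes of complex I, 3 of 4 of complex II, 4 of 8 of complex III, 7 of 14 of complex IV and 9 of 17 of complex V, but for 0 of 7 assembly factors. The count was 56 of 84 (66.7%, against 38.7% of all genes) after another quantile normalisation and 35 of 84 (41.7%, against 24.3%) after centring each array on its median. The highest array was most often CD37KO replicate 1 (29 members, 34.5%, against 23.8% of all genes) or CD37KO replicate 3 (25 members, 29.8%, against 18.8%). WT replicate 2 also held 31.5% of the members' sum of squares within genotypes, against 21.5% for all genes. CD37KO replicate 2 held 17.8%, against 26.6% for all genes.

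**Figure D3:**
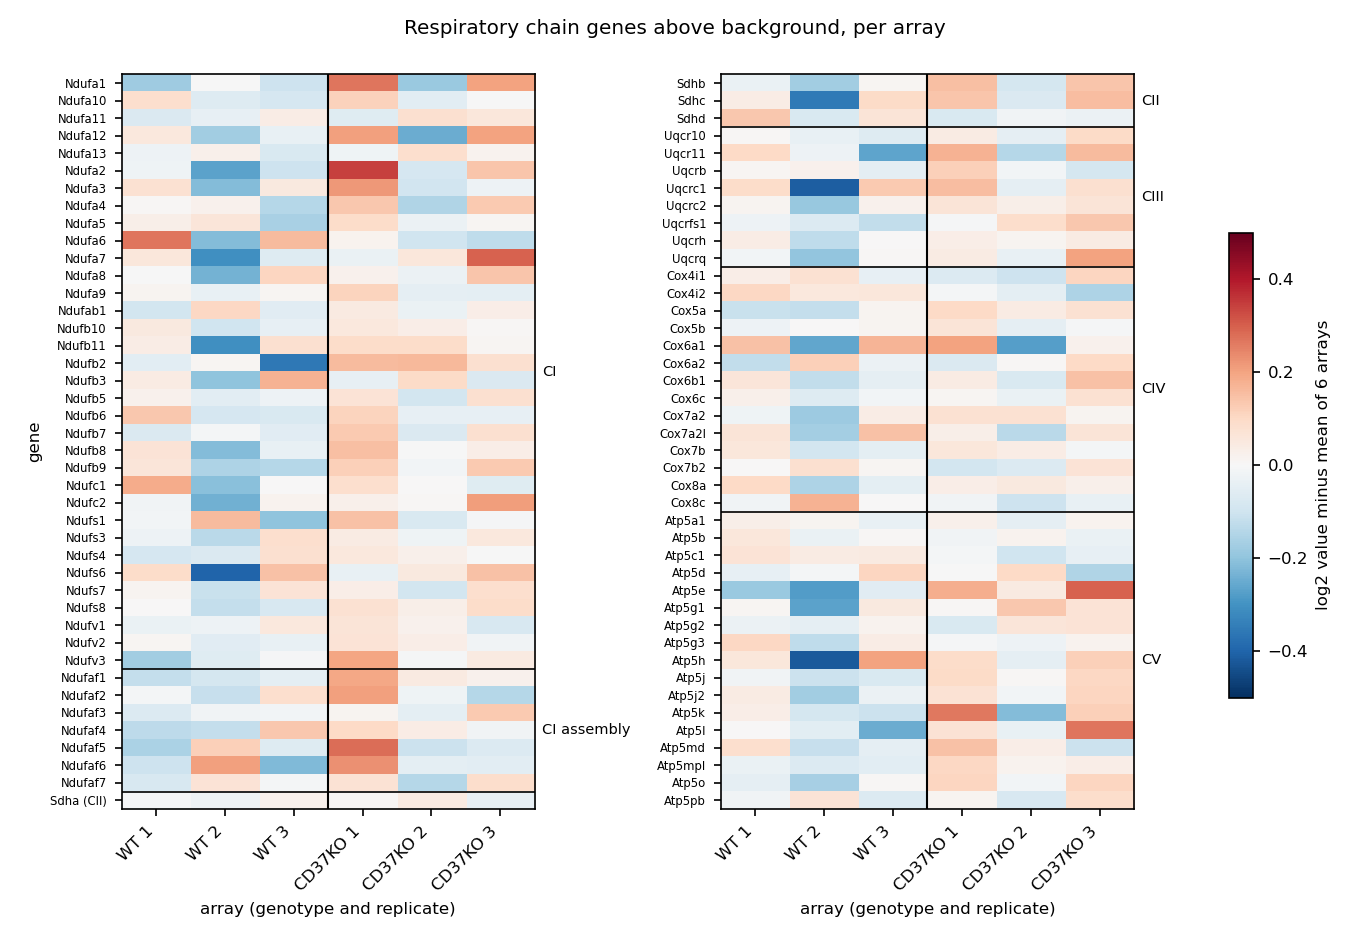
Log2 value of each of the 84 genes above background minus its mean over 6 arrays (colour), with genes by complex as rows (CI to CV for complexes I to V) and arrays as columns, the vertical line parting WT from CD37KO. The column of WT replicate 2 is blue for most genes, as the lowest array for 41 of 84, and the columns of CD37KO replicates 1 and 3 are mostly red.

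By complex, the mean deviation in WT replicate 2 was -0.16 for complex II, -0.13 for complex III, -0.11 for complex I, -0.11 for complex V and -0.047 for complex IV. The mean of complex IV takes in its isoforms of other tissues. Relative to the other WT arrays, these were at 0.20 (Cox6a2), 0.18 (Cox8c), 0.074 (Cox7b2) and -0.026 (Cox4i2), and the mean without them was not calculated. The other complex IV genes above background ran from -0.41 (Cox6a1) to 0.080 (Cox4i1). Among these, all but Cox4i1 and Cox5b (0.010) were below 0, so the smaller deviation of complex IV rests in part on the isoforms. The mean deviations in WT replicate 2 were -0.10 for mitochondrial ribosomal proteins, -0.028 for cytosolic ribosomal proteins and -0.020 for all genes. The assembly factors had 0.0070 in this array and their lowest value, -0.096, in WT replicate 1. The low levels in WT replicate 2 were clearer in the brighter genes. Relative to the mean of the other WT arrays, the median was -0.10 for the 42 members above a level of 8.65 and -0.026 for the 42 below it, while all genes on either side of that level had -0.0053 and -0.020.

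The dips in WT replicate 2 were large in a few genes. Relative to the mean of the other WT arrays, 14 of 84 members were lower there by more than 0.25 (16.7%, against 10.6% of all genes). The share was 16.4% for mitochondrial and 3.12% for cytosolic ribosomal protein genes, so it was not particular to the respiratory chain. Atp5h, the d subunit of the peripheral stalk of ATP synthase, was at 10.33, 9.85 and 10.47 in WT and 10.36, 10.23 and 10.39 in CD37KO. Its 3 probe sets had 9.85, 9.61 and 9.57 in WT replicate 2 and at least 9.94 in every other array. Uqcrc1, a core protein of complex III, was at 9.76, 9.26 and 9.80 in WT and 9.82, 9.62 and 9.75 in CD37KO. Ndufs6, an accessory subunit of the matrix arm of complex I, was at 8.92, 8.43 and 8.98 in WT and 8.79, 8.88 and 8.98 in CD37KO. In each of these genes WT replicate 2 stood apart from its other WT arrays, by -0.55 for Atp5h and by -0.52 for both Uqcrc1 and Ndufs6. Next came Ndufa6 at -0.43, Sdhc at -0.42, Cox6a1 at -0.41, Ndufb11 at -0.36 and Ndufb3 at -0.31. Ndufaf6, an assembly factor, had the opposite deviation of 0.37.

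Within its own genotype, CD37KO replicate 2 was about as low. Relative to the other arrays of the genotype, the median of the 84 members was -0.075 there and -0.070 in WT replicate 2. All genes above background had -0.032 and -0.014, and mitochondrial ribosomal protein genes -0.093 and -0.088. The largest dips in CD37KO replicate 2 were mostly in other members. In that array, 7 of 84 genes (8.33%) were below the mean of the other CD37KO arrays by more than 0.25, against 10.5% of all genes above background. Ndufa12, an accessory subunit of complex I, was at 8.28, 8.05 and 8.19 in WT and 8.43, 7.98 and 8.42 in CD37KO, a deviation of -0.45 in that array. Ndufa1 followed with -0.42, Atp5k with -0.41, Cox6a1 with -0.39, Ndufa2 with -0.33, Uqcr11 with -0.31 and Ndufa4 with -0.28. Cox6a1, an accessory subunit of cytochrome oxidase, was thus low in both arrays, at 10.10, 9.70 and 10.13 in WT and 10.16, 9.68 and 9.98 in CD37KO. It had the largest standard deviation within genotypes of the 84 genes (0.24), followed by Atp5h (0.24), Uqcrc1 (0.23), Ndufs6 (0.22) and Ndufa12 (0.20). Although its symbol names it for complex I, Ndufa4 is now known as a subunit of complex IV.

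**Figure D4:**
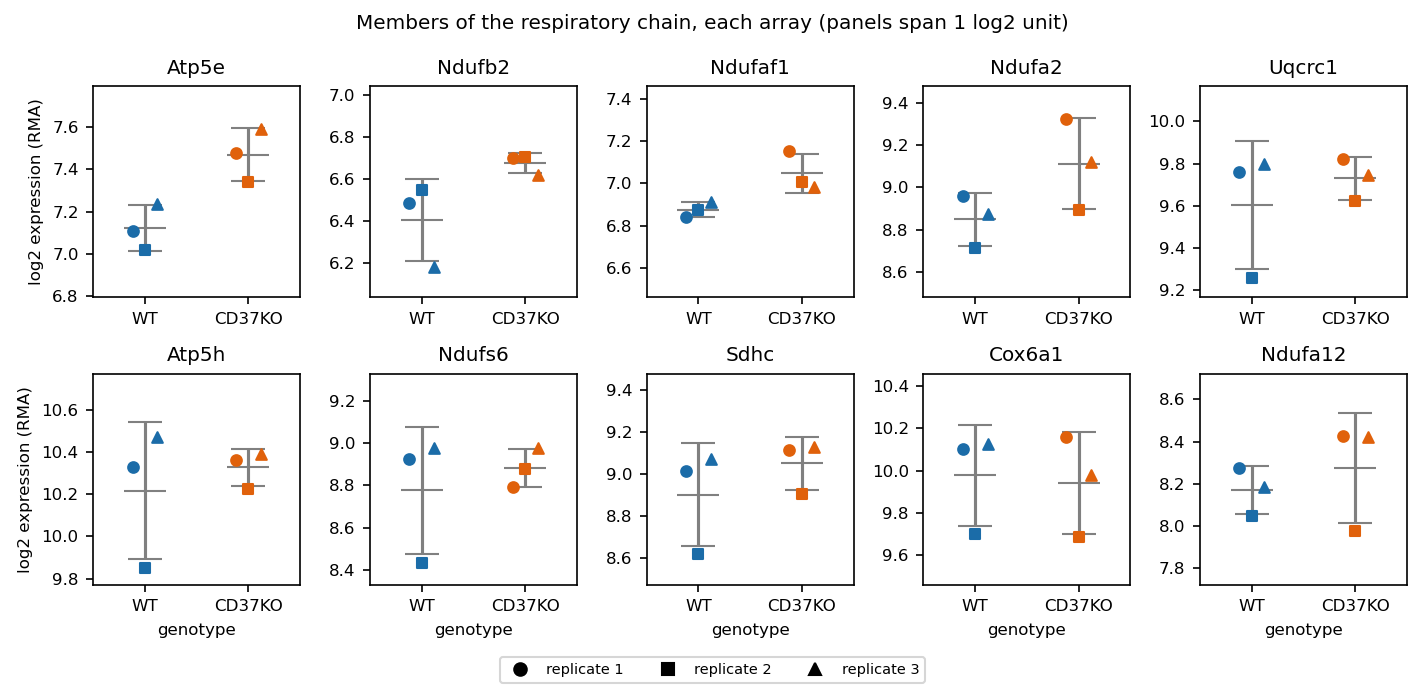
Log2 level of 10 respiratory chain genes in each array (vertical axis, each panel spanning 1 log2 unit) by genotype, with 1 point per mouse, the replicate number as its shape, and the mean ± SD (n = 3) in grey. Atp5e, Ndufb2 and Ndufaf1 show groups that do not overlap, and Uqcrc1, Atp5h, Ndufs6 and Sdhc show a low square in WT, which is replicate 2.

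The promoters of 3 genes low in WT replicate 2 are shown, picked because all carry a letter match to the site of NRF1. This is a transcription factor known for binding upstream of many respiratory chain genes. The motif searched was GCGCA and GCGC parted by any base (GCGCA, N, GCGC), on both strands, and its match is in capitals. The windows (RefSeq, GRCm38.p6, minus strand, read in the sense of the gene) are chr11:115420021-115420090 for Atp5h, chr5:115349036-115349105 for Cox6a1 and chr13:73328483-73328528 for Ndufs6.
Atp5h: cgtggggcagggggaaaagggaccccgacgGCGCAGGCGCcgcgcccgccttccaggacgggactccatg
Cox6a1: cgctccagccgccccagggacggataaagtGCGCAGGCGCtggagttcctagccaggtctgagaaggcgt
Ndufs6: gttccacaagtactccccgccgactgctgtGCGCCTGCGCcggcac
Of the 89 members, 73 had an entry in the promoter table, which spans 250 bases before and 50 after the start. The NRF1 motif was found on either strand in 18 of them (24.7%), against 12.4% of 7965 genes above background and 5.19% of all 27025 genes in the table. CCGGAAG was found in 18 (24.7%), against 22.0% and 9.93%. The promoters of Atp5h, Atp5k, Cox6a1 and Sdhd held both. Among the other dips named above, Uqcrc1 and Ndufa6 held the NRF1 motif, and Ndufb11 and Ndufb3 did not. Sdha, Ndufa5 and Ndufaf5 held it with deviations of -0.035, 0.13 and 0.23 in WT replicate 2 from the other WT arrays. The 17 genes above background with the motif had a median deviation of -0.15 there (range -0.55 to 0.23). The 52 without it had -0.071 (range -0.36 to 0.21), so the ranges overlapped widely. Their median genotype differences were 0.050 and 0.062. For CCGGAAG, the 18 genes with it had a median deviation of -0.13 in WT replicate 2 (range -0.55 to 0.072). The 51 without it had -0.066 (range -0.52 to 0.23). Their median genotype differences were 0.10 and 0.056. A letter match is not a shown binding site, and these splits were not tested.

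Of other genes of the pathway, none passed the adjusted threshold in limma and 5 of 78 had an unadjusted p under 0.05, all with higher values in CD37KO. This is 6.41% of these genes, against 2.96% of all genes and 5.1% of the genes above background with higher values at that p. Ppargc1a, a coactivator of mitochondrial gene expression, was at 6.66, 6.58 and 6.57 in WT and 6.79, 7.15 and 7.09 in CD37KO, a difference of 0.41 (standard error 0.096, unadjusted p = 0.00269 by limma). Pprc1, a related coactivator, was at 7.97, 8.05 and 7.81 in WT and 8.30, 8.11 and 8.32 in CD37KO, a difference of 0.31 (standard error 0.087, unadjusted p = 0.00756 by limma). In both coactivators the groups did not overlap. The others were Uqcc2, an assembly factor of complex III, with 0.23, and Surf1 and Cox11, which assemble cytochrome oxidase, with 0.22 each. The remaining regulators had differences between -0.13 and 0.11, among them Nrf1 at -0.0016, Gabpa at 0.0078 and Tfam, which binds mitochondrial DNA, at -0.085. Median differences were 0.084 for 17 assembly factors of complex IV above background, 0.074 for 13 genes of ubiquinone, cytochrome c and other carriers, 0.043 for 7 other genes of complex III and -0.0095 for 12 enzymes of the TCA cycle, which feeds the chain with NADH and succinate. Mitochondrial ribosomal proteins, which make the subunits encoded by mitochondrial DNA, had 0.072 (73 genes) and cytosolic ribosomal proteins 0.028 (64 genes).

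**Figure D5:**
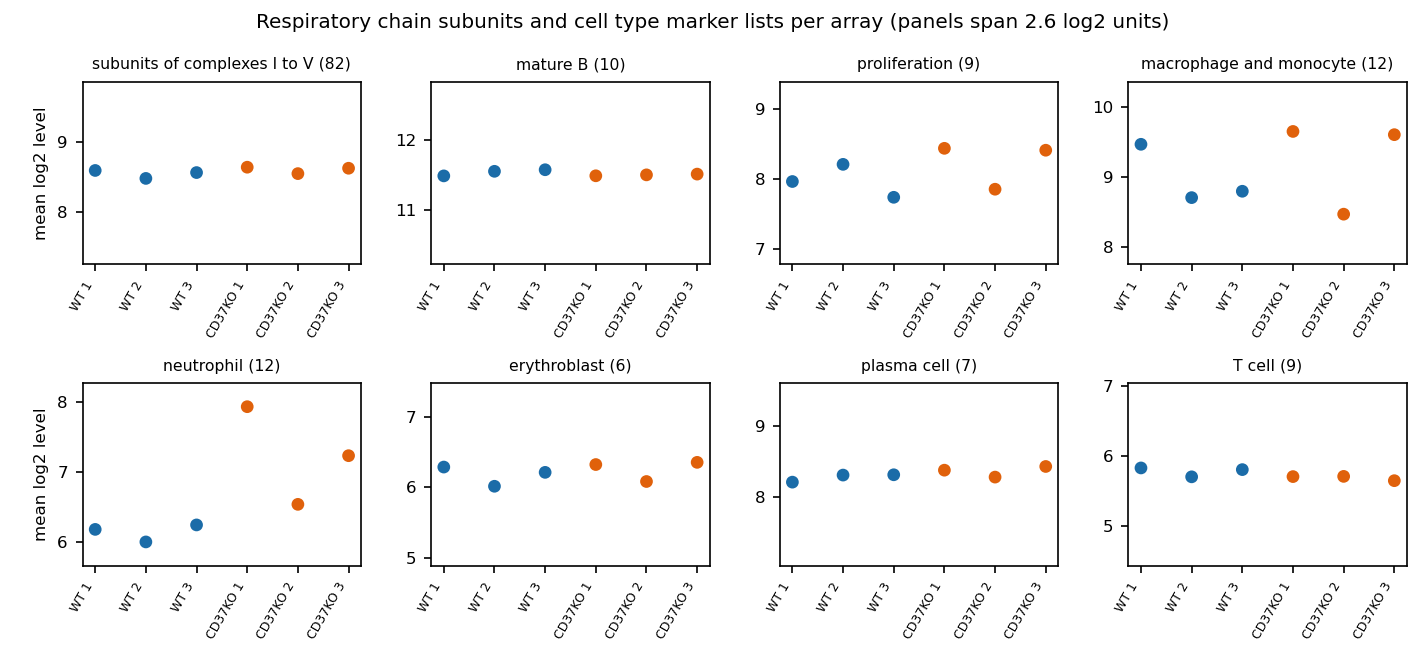
Mean log2 level of the 82 subunit genes of complexes I to V and of cell type marker lists (vertical axis, each panel spanning 2.6 log2 units) in each array (horizontal axis), with WT in blue and CD37KO in orange and gene numbers in brackets. The subunit genes stayed within 8.48 to 8.64, while the neutrophil markers ran from 6.01 to 7.93 and the macrophage and monocyte markers from 8.47 to 9.65.

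The respiratory chain genes varied less over the arrays than the neutrophil, macrophage and proliferation lists did. The mean of the 82 subunit genes was 8.60, 8.48 and 8.57 in WT and 8.64, 8.55 and 8.63 in CD37KO replicates 1 to 3. The lowest value within each genotype was that of replicate 2, which was also the array with the lowest macrophage and neutrophil means of its genotype. Proliferation genes differed in this respect, since WT replicate 2 had the highest of the WT arrays.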

How the data were processed

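B cell RNA of 6 mice, 3 of each genotype, was hybridised singly to Affymetrix mouse gene arrays. The values the authors deposited are on the log2 scale, 1 per probe set. RMA and the build mm8 are named in the submitters' processing notes, and the sources used here do not name the software that ran RMA. RMA draws low signals together, so differences near background are understated. The raw scans were not used here.

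Of 35361 probe sets, 21780 name a single gene, and the brightest per gene was kept, which gave 19935 genes. Symbols were updated through the Entrez Gene ID with the GRCm38.p6 gene table, which held no entry for 91 probe sets. CD37KO was compared with WT by limma 3.58.1 in R 4.3.3 (functions lmFit and eBayes) in a two-sided test, with p-values adjusted by Benjamini-Hochberg over 19935 genes and a threshold of 0.05; the procedure was tested on simulated data. Lists were described by counts and medians, with no test. The number of arrays limits how precise a difference can be, and with 3 against 3 the smallest p of an exact test is 0.1. Mice are biological replicates by the labels.

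The members, gene lists, promoter motifs and the rule for named genes were chosen with earlier results of these data known. Named were Cd37, members with the smallest p under 0.05, members with the largest difference or spread per complex, all of complex II, isoform pairs, members near background and pathway genes with a p under 0.05. Members singled out for their deviation in 1 array, for groups that do not overlap, or for steady values were named after their values were seen. Alternatives were array weights, ordinary least squares, a trended robust eBayes, a block for the replicate number, another quantile normalisation, median centring, averaging a gene's probe sets, a fit of genes above background alone, omission of each array in turn, background at percentile 90 or 99, and symbols as the annotation gives them. Counts of members above 0 or lowest in WT replicate 2 under other settings were added after the data were seen.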

Additional observations from a re-analysis of the deposited data

How the results depend on the processing

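No member passed the adjusted threshold under any of the 15 alternatives. Over all genes, 11 passed in the analysis as reported, 3 with ordinary least squares, 19 with array weights and between 4 and 14 when 1 array was left out. Members with higher values at an unadjusted p under 0.05 numbered 4, and 2 after another quantile normalisation, 7 with ordinary least squares, 9 with array weights and 2 to 12 with 1 array left out, the 12 without CD37KO replicate 2. Members with lower values numbered 0, and 1, 2 and 3 under the first 3 of these settings and 0 to 1 with 1 array left out. The labels number the biological replicates and do not say whether equal numbers mark a pair. Over the 9880 genes above background, the within-genotype deviations of same-numbered arrays correlated at 0.30, 0.10 and -0.12. For the members, mean deviations from the genotype mean were close by number (0.040 and 0.042, -0.060 and -0.059, 0.020 and 0.017). Whether the numbers pair the samples cannot be told from these values. With the replicate number as a block 4 genes passed, 0 of them members, and 3 members had higher values without adjustment. The median of complex V was 0.043 with array weights and 0.041 to 0.11 with 1 array left out, against 0.10. The median of complex IV was -0.014 with array weights, -0.0011 with the mean of probe sets and -0.0091 to 0.042 with 1 array left out. In WT replicate 3, another quantile normalisation moved the mean deviation of complex I from -0.024 to 0.037 and of complex IV from 0.015 to 0.058. The causes of these shifts were not tested. The adjusted p of Atp5e was lowest with array weights and stayed above 0.05 in each alternative.

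Probe sets disagreed for some genes. Of 17 members with several, Atp5g2, Atp5pb, Cox5b, Cox6c, Cox7a2l, Cox7b, Ndufs3 and Uqcr11 had differences of both signs. The symbols match 19 annotated pseudogenes, and whether probes also read such copies was not tested.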

Other observations

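Assembly genes outside the names searched were also measured. The median log2 difference between CD37KO and WT was 0.086 for 6 further assembly factors of complex I above background, 0.033 for 3 of complex II and 0.029 for 3 of complex V, and none of these genes had an unadjusted p under 0.05 in limma. Cycs, the cytochrome c that carries electrons from complex III to complex IV, had a difference of 0.15 (standard error 0.069), with every CD37KO array above every WT array.

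The remaining marker lists were also averaged per array. The mean of 6 erythroblast markers was 6.29, 6.02 and 6.21 in WT and 6.33, 6.08 and 6.36 in CD37KO replicates 1 to 3, again with the lowest value of each genotype in replicate 2. Only 2 of these markers, Slc4a1 and Tfrc, were above background in every array. Slc4a1 ran from 5.99 to 7.06 and was lowest in replicate 2 of each genotype. Tfrc was also lowest in replicate 2 in WT (9.23). In CD37KO, by contrast, replicate 2 was the highest array for Tfrc, with 9.35, 9.44 and 9.42 in replicates 1 to 3. The mean of 7 plasma cell markers lay between 8.20 and 8.43 and that of 9 T cell markers between 5.65 and 5.83, near background.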
